A study of Mus musculus with 16 samples.

Results

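The Wnt pathway loci comprised the surroundings of 10 genes that act in canonical Wnt signalling in mouse cells: Tcf7, Lef1, Tcf7l1, Tcf7l2, Ctnnb1, Wnt3, Lgr5, Axin2, Sp5 and Dkk1. An accessible region belonged to a locus when its centre was in the gene body or within 100 kb of a transcription start site (TSS) of the gene in GENCODE M21 on mm10. By this rule 187 of the 81132 accessible regions of the data set were assigned to the 10 loci, and no region fell into more than 1 locus. The regions come from ATAC-seq, in which the Tn5 transposase cuts and tags open chromatin. The cells were SBROS, a knock-in mouse embryonic stem (ES) cell line on the CGR8 background, in which SOX2 carries a SNAP-tag and OCT4 a HALO-tag. The tags were added to a reporter line that also carries eGFP at Sox1 and mCherry at Brachyury, the gene T of the wider list below. Cells in G1 were sorted into 4 populations with 3 libraries each: high SOX2 and high OCT4 (SHOH), high SOX2 and low OCT4 (SHOL), low SOX2 and high OCT4 (SLOH), and low SOX2 and low OCT4 (SLOL). All 4 were grown in serum with LIF, 3 µM CHIR99021 and 0.8 µM PD184352, and stained with the HaloTag TMR ligand, the SNAP-SiR647 dye and a Hoechst dye before sorting. CHIR99021 inhibits the kinase GSK3 and PD184352 inhibits MEK. Every population thus carried an agent that acts inside the Wnt pathway, and no population without it was analysed here. As a model the line has 1 tagged genotype, and the OCT4 tag is on a single allele.

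The region list pools all 12 libraries and holds positions alone, without a level, a score or the library in which a region was called. The list does not show the depth behind a region, no error between replicates can be given, and the 4 populations were not compared with each other. The 95% Wilson intervals given with shares cover counting error only. A region says that chromatin was open in some of the libraries, and a promoter can be open without being transcribed.

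In canonical Wnt signalling a secreted Wnt ligand binds Frizzled and LRP receptors at the cell surface, and this blocks the complex of AXIN, APC and GSK3 that marks β-catenin for destruction. β-catenin then accumulates, enters the nucleus and binds the TCF/LEF factors, which sit on DNA and recruit repressors in its absence. In mouse ES cells this pathway favours self-renewal in culture, and inhibition of GSK3 switches it on from inside the cell.

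The sequences below carry the letters that TCF/LEF factors prefer, searched as CTTTGAT or CTTTGAA on either strand, and the letters of SOX factors, searched as CCTTTGT or CCATTGT. The octamer ATGCAAAT of OCT factors was searched in the same way. Shares are from the central 300 bp of each region unless whole regions are named, so that windows had the same length. A match is a description of the letters and no measurement of binding. All sequences are from GRCm38 (the assembly of mm10), written 5′ to 3′ on the strand named, with matches in capitals. The first set shows the windows away from start sites that held a pair or more of TCF/LEF matches, or a TCF/LEF and a SOX match both inside the region. The narrow region next to the Tcf7 start is added, since no region covers that start. A match on the minus strand appears here as its reverse complement.
Axin2 downstream region with 3 TCF/LEF matches, chr11:108961694-108961993, plus strand: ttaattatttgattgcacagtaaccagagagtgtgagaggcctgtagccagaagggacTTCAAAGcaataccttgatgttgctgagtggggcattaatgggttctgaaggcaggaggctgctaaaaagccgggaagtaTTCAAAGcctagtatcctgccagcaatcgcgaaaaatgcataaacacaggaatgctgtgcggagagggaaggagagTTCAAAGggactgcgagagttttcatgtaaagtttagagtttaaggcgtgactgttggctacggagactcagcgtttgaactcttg
Axin2 far downstream region with a SOX and a TCF/LEF match, chr11:109000300-109000551, plus strand: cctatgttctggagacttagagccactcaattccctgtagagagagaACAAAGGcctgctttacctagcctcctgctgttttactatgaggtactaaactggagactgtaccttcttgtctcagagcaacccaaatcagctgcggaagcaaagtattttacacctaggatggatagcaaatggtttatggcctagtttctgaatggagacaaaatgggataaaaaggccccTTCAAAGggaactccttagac
Sp5 upstream region with a SOX and a TCF/LEF match, chr2:70471945-70472244, plus strand: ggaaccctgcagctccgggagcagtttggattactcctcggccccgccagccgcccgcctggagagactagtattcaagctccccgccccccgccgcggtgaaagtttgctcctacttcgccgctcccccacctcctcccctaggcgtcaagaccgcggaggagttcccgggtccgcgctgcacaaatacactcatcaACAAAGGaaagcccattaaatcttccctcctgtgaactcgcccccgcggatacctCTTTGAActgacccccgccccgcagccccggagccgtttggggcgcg
Lef1 far upstream region with 2 TCF/LEF matches, chr3:131084850-131085149, plus strand: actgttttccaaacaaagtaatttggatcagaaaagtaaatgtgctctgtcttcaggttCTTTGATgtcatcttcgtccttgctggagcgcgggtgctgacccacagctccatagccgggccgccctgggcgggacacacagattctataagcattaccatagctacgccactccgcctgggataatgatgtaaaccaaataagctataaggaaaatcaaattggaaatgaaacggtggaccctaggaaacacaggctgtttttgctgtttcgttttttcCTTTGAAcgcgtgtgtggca
Lef1 near upstream region with a SOX and a TCF/LEF match, chr3:131105996-131106295, plus strand: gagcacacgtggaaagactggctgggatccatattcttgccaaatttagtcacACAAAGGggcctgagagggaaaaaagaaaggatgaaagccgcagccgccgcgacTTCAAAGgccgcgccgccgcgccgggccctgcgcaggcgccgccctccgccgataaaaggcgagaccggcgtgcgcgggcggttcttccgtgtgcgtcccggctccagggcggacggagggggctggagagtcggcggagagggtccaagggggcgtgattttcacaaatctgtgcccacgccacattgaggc
Lef1 intronic region with 2 facing TCF/LEF matches, chr3:131137203-131137498, plus strand: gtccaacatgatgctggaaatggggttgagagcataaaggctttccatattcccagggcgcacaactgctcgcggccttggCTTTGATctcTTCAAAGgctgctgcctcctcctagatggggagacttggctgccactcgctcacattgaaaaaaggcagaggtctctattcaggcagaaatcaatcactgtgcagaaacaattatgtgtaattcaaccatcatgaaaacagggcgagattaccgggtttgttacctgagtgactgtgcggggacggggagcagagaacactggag
Ctnnb1 downstream region in Ulk4 with 2 TCF/LEF matches, chr9:120981650-120981949, plus strand: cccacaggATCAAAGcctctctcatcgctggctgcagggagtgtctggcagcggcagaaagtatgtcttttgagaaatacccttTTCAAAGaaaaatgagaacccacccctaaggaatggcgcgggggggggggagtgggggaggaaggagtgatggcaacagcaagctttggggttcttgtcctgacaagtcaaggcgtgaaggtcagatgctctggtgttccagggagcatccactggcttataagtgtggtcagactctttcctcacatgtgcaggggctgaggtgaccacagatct
Tcf7 promoter region with a TCF/LEF match, whole region, chr11:52283293-52283480, plus strand: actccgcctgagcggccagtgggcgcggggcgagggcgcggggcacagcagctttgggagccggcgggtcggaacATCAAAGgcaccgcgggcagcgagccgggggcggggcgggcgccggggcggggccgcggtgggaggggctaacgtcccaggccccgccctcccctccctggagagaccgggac

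The second set shows TCF/LEF matches in regions that cover the main start site of a member, each with the 11 bases on either side. They are given because these regions lie where transcription of the gene begins, and the coordinates are those of the capitals. The match 92 bp downstream of the Sp5 start is left out, since its flank overlaps that of the next.
Sp5 first exon, first match, chr2:70474973-70474979, minus strand: gaaagcaaatcCTTTGAAtccacaaagct
Sp5 first exon, last match, chr2:70475037-70475043, minus strand: aagatttatggCTTTGAAgtttgccgcta
Axin2 first exon, chr11:108920427-108920433, plus strand: agccggctgcgCTTTGATaaggtcctggc
Axin2 further into the start-site region, chr11:108920790-108920796, plus strand: tcggctcgcgcCTTTGAAgtgcacagtta
Dkk1 first exon, chr19:30549607-30549613, minus strand: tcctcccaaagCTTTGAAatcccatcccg
Lgr5 first intron, chr10:115586643-115586649, minus strand: gccgaaccgccCTTTGAAgtgccgccggc
Tcf7l1 upstream edge of the start-site region, chr6:72789730-72789736, plus strand: attttgtgacaCTTTGAAacaagttgagc

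Tcf7l1 had the most regions of the 4 TCF/LEF genes and of all 10 members. Its locus of 359 kb on chromosome 6 (gene 72626378 to 72789254, minus strand) held 50 regions, or 13.93 regions per 100 kb. Tcf7l1, also called TCF3, is the TCF factor best known in ES cells for repressing pluripotency genes. The same density was computed for all 21938 protein-coding genes, which had a median of 5.00 regions per 100 kb with an upper quartile of 7.76, and 98.6% of them had a lower density than Tcf7l1. The protein-coding genes of chromosome 6 had a median of 6.00, and 95.5% of them lay below Tcf7l1. Within the gene body there were 22 regions. The region over its main start site (72788997 to 72789738, 742 bp) was followed by a narrow one of 161 bp 556 bp downstream, which held a SOX match. Upstream, 16 regions were spread towards Kcmf1, which was the closest gene of 9 of the regions, and the widest region of the locus (863 bp, 72862664 to 72863526) was in an intron of Kcmf1. Capg, the actin-capping protein gene at the other end of the locus, was closest to 8. Tcf7l1 itself was the closest gene of 11 regions.

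Lef1 came next in density. Its locus of 214 kb on chromosome 3 (gene 131110471 to 131224356, plus strand) held 24 regions, or 11.22 per 100 kb, above 93.5% of protein-coding genes. The protein-coding genes of chromosome 3 had a median of 4.99, and 92.1% of them lay below Lef1. LEF1 is mostly an activating partner of β-catenin. In its gene body lay 16 regions, among them an intronic region of 920 bp at 131178723 to 131179642, the widest outside promoters. The annotated 5′ end of Lef1 lay at the edge of a region of 232 bp (131110250 to 131110481). The widest region of the locus was a different one, of 1082 bp at 131111606 to 131112687, centred 1676 bp into the gene. It ended 110 bp before a second start, at 131112797, from which a shorter coding transcript begins. That transcript, Lef1-203, encodes 331 codons against 397 for the principal form. Both have 11 coding exons and share 10 of them, so they differ in the first, which contributes 207 coding bases to the principal form and 9 to the shorter one. The first part of LEF1 is the part that binds β-catenin. The centre of the wide region also lay 57 bp from the start of Gm43352, an antisense transcript, so the region cannot be given to 1 of these starts alone. The 250 bases before the second start in RefSeq (GRCm38) held none of the 3 motifs and are shown because 147 of them lay in the wide region.
Lef1 second start, 250 bases upstream, chr3:131112541-131112790, plus strand: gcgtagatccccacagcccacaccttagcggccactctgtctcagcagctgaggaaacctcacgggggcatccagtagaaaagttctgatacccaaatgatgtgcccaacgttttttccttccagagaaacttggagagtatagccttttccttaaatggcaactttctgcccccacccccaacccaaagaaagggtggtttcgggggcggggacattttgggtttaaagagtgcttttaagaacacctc

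Of the Lef1 windows, 6 held TCF/LEF matches, with 8 matches in all. In 2 of these windows, 62.1 kb upstream and 96.4 kb downstream, the single match lay outside the narrower region itself, which leaves 6 matches inside regions. The far upstream window printed above, 25.5 kb before the start, had its matches 221 bp apart on the same strand. In the intronic window, 26.9 kb downstream, the pair lay on opposite strands with 3 bases between them. That window is also in an exon of Gm42449, an unconfirmed transcript model that was the closest gene of 9 Lef1 regions. The region 4.33 kb upstream held a TCF/LEF and a SOX match within 1 window. Hadh, which encodes an enzyme of fatty acid oxidation and starts beyond the 3′ end of Lef1, was the closest gene of 5 regions, and Lef1 of 5.

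Tcf7, the gene of TCF1, had 15 regions in 200 kb on chromosome 11 (gene 52252371 to 52283014, minus strand), or 7.48 per 100 kb, above 72.6% of protein-coding genes. None of its start sites in GENCODE M21, 2 in all, was inside a region. They lay 279 and 722 bp from the nearest region, which was 188 bp wide (52283293 to 52283480) and centred 373 bp upstream. Both start coding forms of 303 codons. The 250 bases before the main start in RefSeq (GRCm38) held an ATG whose frame ran without a stop codon to their end. No region covered any of these bases. Whether a longer form starts further upstream was not tested, and such a start would change these distances. A second region of the same width followed 1462 bp upstream (52284382 to 52284569), in an exon of the antisense gene A630014C17Rik. Each of these narrow regions held 1 CTTTGAT. Another narrow region, 3439 bp upstream, had the octamer in its window but beyond the edge of the region. In the body of Tcf7 there was 1 region, 8.07 kb downstream. Vdac1, which encodes a channel of the outer mitochondrial membrane, was the closest gene of 7 regions against 5 for Tcf7, and its own promoter held the widest region of the locus, 1119 bp.

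Tcf7l2 was the TCF/LEF gene with the lowest density. The 17 regions of its locus of 357 kb on chromosome 19 (gene 55741820 to 55933654, plus strand) gave 4.77 per 100 kb, above 47.2% of protein-coding genes. TCF7L2, or TCF4, is the main TCF factor of the intestinal epithelium. A region of 603 bp (55741285 to 55741887) covered the first 2 of its 17 annotated start sites, including that of the longest form, Tcf7l2-213 with 606 codons. The principal start lay 382 bp past its edge. Its last 6 start sites, over 150 kb into the gene, lay between 10.5 and 15.7 kb from any region. Among them is the start of Tcf7l2-203, a short coding form of 299 codons, 13.5 kb away. The short form of Lef1 thus had a wide region next to its start, whereas that of Tcf7l2 had none. The widest region, 798 bp at 55729240 to 55730037, was intergenic and 12.6 kb upstream. No window of this locus held a TCF/LEF match, and 4 held a SOX match. The longest stretch between neighbouring region centres in any of the loci, 102 kb, lay inside this gene.

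**Figure D1:**
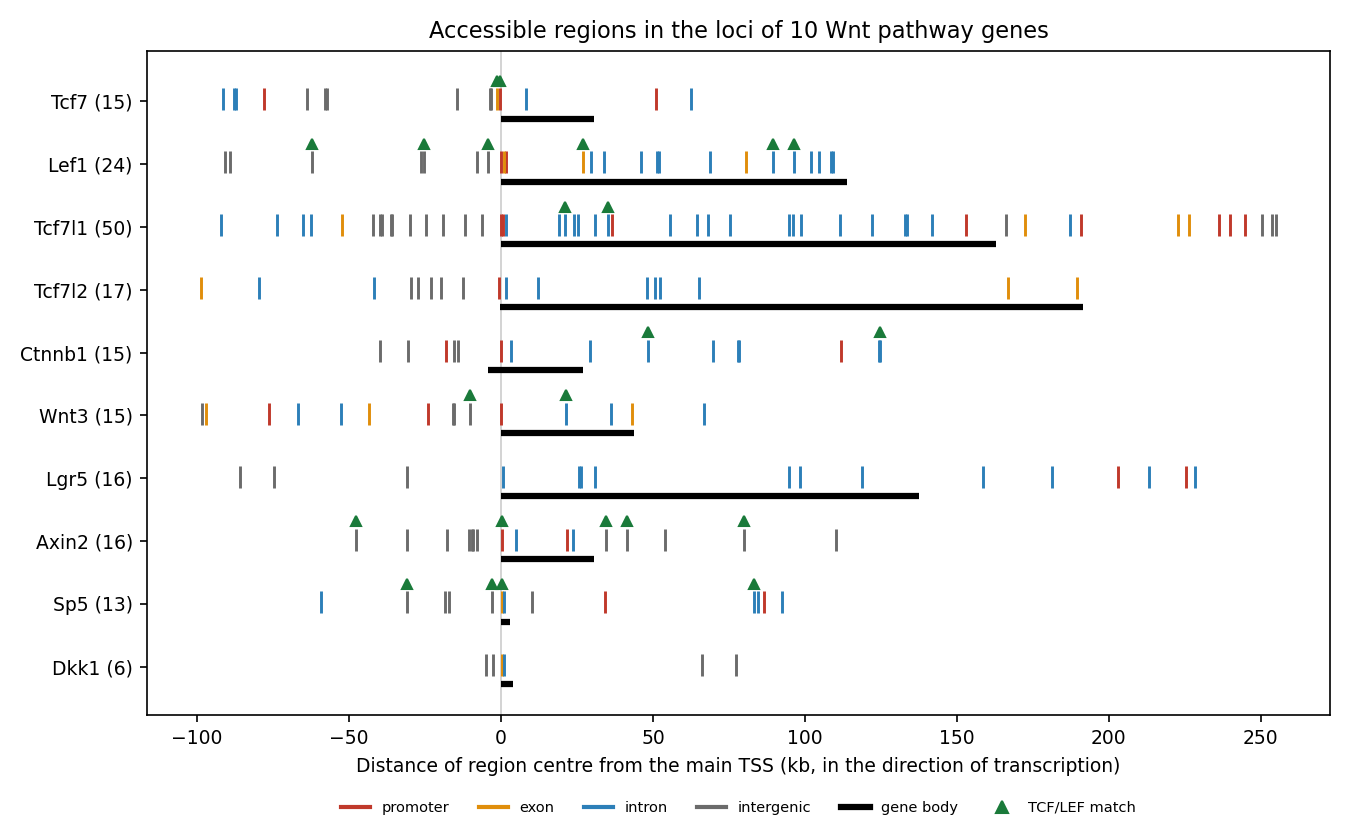
Accessible regions in the 10 Wnt loci, drawn to scale as distance in kb of the region centre from the main TSS, with positive values in the direction of transcription. Each vertical line is 1 region, coloured by its class, black bars are gene bodies, triangles mark windows with a TCF/LEF match, and the number of regions is given beside each gene. Tcf7l1 has 50 regions and Dkk1 has 6.

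Ctnnb1 encodes β-catenin itself. Its locus of 230 kb on chromosome 9 (gene 120929216 to 120960507, plus strand) held 15 regions, or 6.52 per 100 kb, above 65.2% of protein-coding genes. One region of 646 bp (120932977 to 120933622) covered 4 of the 15 annotated start sites, including the principal one, and its central window had a GC content of 75.3%. A start annotated further upstream, at 120929216, of a transcript with 42 codons, lay 3761 bp from the nearest region. The gene body was otherwise nearly free of regions, with a single further one of 160 bp in an intron. The other 13 regions lay outside, and 8 of the 15 were closest to Ulk4, a large neighbouring kinase-like gene that runs towards Ctnnb1 on the other strand. A region of 628 bp in an intron of Ulk4 (120981486 to 120982113), 48.4 kb from the Ctnnb1 start, was the widest outside promoters and held the 2 TCF/LEF matches printed above. A further match lay in a Ulk4 intron 125 kb away.

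Wnt3 encodes a ligand that is needed for the primitive streak of the mouse embryo. Its locus of 200 kb on chromosome 11 (gene 103774150 to 103817957, plus strand) held 15 regions, or 7.50 per 100 kb, above 73.3% of protein-coding genes. The single annotated start was inside a region of 724 bp (103773714 to 103774437). Of 3 regions in the gene body, 1 of 681 bp in an intron 21.3 kb downstream (103795091 to 103795771) was the widest outside promoters and held a CTTTGAA, as did a region 10.1 kb upstream. The locus is shared by another ligand gene: the promoter of Wnt9b, 24.2 kb upstream of Wnt3, held the widest region, 921 bp at 103749506 to 103750426. Wnt9b, Gosr2 and Nsf, which encode a ligand and a pair of proteins of membrane fusion, were each the closest gene of 3 regions, the same number as Wnt3.

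Lgr5 encodes a receptor of R-spondins and marks stem cells of the intestine. Its locus of 329 kb on chromosome 10 (gene 115450311 to 115587780, minus strand) held 16 regions, or 4.87 per 100 kb, above 47.8% of protein-coding genes. The widest region of all 10 loci, 1670 bp, lay over its 5′ end (115586349 to 115588018) and took in 4 of its 6 annotated start sites, those of both coding starts among them. Since its centre was 596 bp inside the gene, it was classed as intronic. In the rest of the gene body there were 6 regions, of which the 1 nearest the 3′ end (115468815 to 115469516) held the octamer and 2 lying 25.8 and 30.8 kb from the start held SOX matches. The central windows had no TCF/LEF match, and the match printed above lay in the outer part of the start-site region. Lgr5 was the closest gene of 4 regions, and A930009A15Rik, a gene on the other strand within Lgr5, of 3.

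Axin2 is a feedback inhibitor that is switched on by the pathway, and its expression is widely read as a sign of Wnt activity. Its locus of 223 kb on chromosome 11 (gene 108920349 to 108950783, plus strand) held 16 regions, or 7.17 per 100 kb, above 70.6% of protein-coding genes. Axin2 was the closest gene of 13 of them, the largest share among the members. The start-site region of 734 bp (108920142 to 108920875) was the widest and had a CTTTGAT 81 bp and a CTTTGAA 444 bp downstream of the start. Upstream, 4 regions between 7.96 and 10.6 kb from the start lay close together, the widest of 559 bp (108909483 to 108910041). Downstream, the region 41.5 kb from the start (108961609 to 108962078, 470 bp) held 3 CTTTGAA, all on the minus strand with 80 and 76 bp from one to the next. Windows 34.5 and 80.1 kb downstream each held a TCF/LEF and a SOX match, although in the first the TCF/LEF letters lay past the edge of the region itself. In all, 5 of the 16 Axin2 windows held a TCF/LEF match.

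Sp5 encodes a zinc finger factor that is a direct target of β-catenin in ES cells. Its locus of 200 kb on chromosome 2 (gene 70474923 to 70477729, plus strand) held 13 regions, or 6.50 per 100 kb, above 64.5% of protein-coding genes. A region of 459 bp (70474866 to 70475324) covered the start site and was centred 172 bp into the first exon. Its 3 TCF/LEF matches lay 53, 92 and 117 bp downstream of the start, within the first exon. The 250 bases before the start in RefSeq (GRCm38) held a CTTTGAT 101 bp upstream, outside the region, which covered 57 of them. They are printed to show the letters that lead up to the matches of the first exon.
Sp5 start, 250 bases upstream, chr2:70474673-70474922, plus strand: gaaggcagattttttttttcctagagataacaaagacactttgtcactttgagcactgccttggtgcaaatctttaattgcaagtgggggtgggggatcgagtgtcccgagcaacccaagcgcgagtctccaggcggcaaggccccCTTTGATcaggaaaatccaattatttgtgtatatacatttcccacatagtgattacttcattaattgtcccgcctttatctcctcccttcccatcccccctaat
The region 2.83 kb upstream, with its SOX and TCF/LEF matches, and a region of 463 bp in the intron of Sp5 were the nearest others. Matches to CTTTGAT also lay in windows 31.1 kb upstream and 83.4 kb downstream, the latter in Gad1 and with the letters outside the region itself. Gad1, the gene of an enzyme that makes GABA, was the closest gene of 4 regions against 3 for Sp5, and it held the widest region outside promoters, 638 bp at 70559202 to 70559839.

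Dkk1, a secreted inhibitor that blocks the LRP receptors, had the lowest count. Its locus of 200 kb on chromosome 19 (gene 30545863 to 30549665, minus strand) held 6 regions, or 3.00 per 100 kb, above 29.4% of protein-coding genes. Of these, 4 lay within 10 kb of the start. The start-site region was 922 bp wide (30548902 to 30549823), a neighbour of 260 bp began after a gap of a single base in the first part of the gene, and 2 others lay 2740 and 5079 bp upstream. The others were 66.0 and 77.5 kb downstream. No central window held a TCF/LEF match. The whole start-site region held a CTTTGAA 55 bp downstream of the start.

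**Figure D2:**
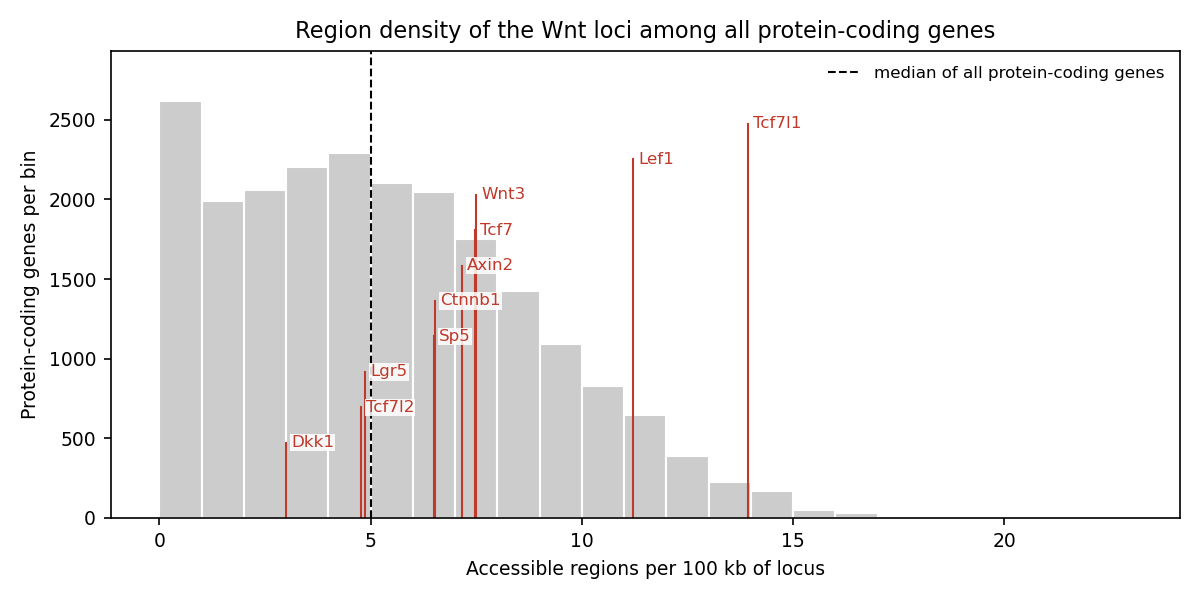
Regions per 100 kb of locus, with the 21938 protein-coding genes as grey bars in bins of 1 and the 10 Wnt genes as red lines whose height has no meaning. The dashed line is the median of all protein-coding genes, 5.00, and 7 of the 10 Wnt genes lie above it.

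Over the 10 loci the median density was 6.84 regions per 100 kb beside 5.00 over all protein-coding genes. Of the members, 7 lay above the median of all protein-coding genes, and the same number lay above the median of their own chromosome. On chromosome 11, with a median of 5.98, Tcf7, Wnt3 and Axin2 lay above 67.8%, 69.2% and 64.6% of its protein-coding genes. Tcf7l1 and Lef1 were the 2 above the upper quartile, and none was below the lower one. The density near the member genes was higher. With loci of 20 kb around the start sites in place of 100 kb, the median over the members was 11.41, beside 5.00 for all protein-coding genes. Loci of this reach are short and hold few regions. The median over all genes can thus move only in coarse steps, and its lack of change says little. Without regions narrower than 200 bp both fell, to 4.75 and 4.00.

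All 10 members had at least 1 promoter that a region overlapped, with a promoter taken as the 1000 bp before a start site and the 100 bp after it. Over all protein-coding genes the share was 66.5%. The start site itself was inside a region in 9 members beside 61.4% of protein-coding genes. The exception, Tcf7, depends on its starts in this annotation. When the centre of a region had to be in the promoter, 7 members remained beside 57.7% of protein-coding genes, since the start-site regions of Sp5, Lgr5 and Dkk1 extended into the gene. These last definitions were chosen after seeing the data. Of the 60 annotated start sites of the 10 genes, 17 were inside a region and 16 were over 5 kb from any. Of the 38 that begin a coding transcript 14 were inside. Many of the 60 begin only transcripts outside the basic set of GENCODE, which favours full-length models. Among the starts over 5 kb away, only that of Tcf7l2-203 begins a transcript of this set.

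**Figure D3:**
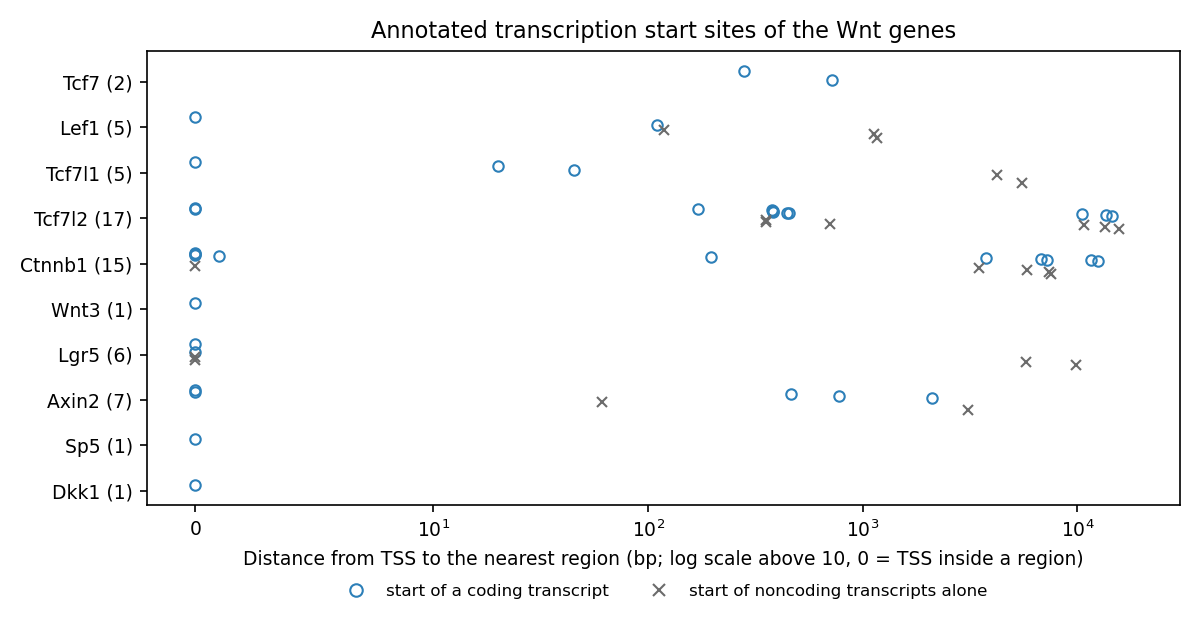
Distance in bp from each annotated TSS of the Wnt genes to the nearest accessible region, on a scale that is logarithmic above 10, with TSSs inside a region at 0. Circles are starts of coding transcripts, crosses are starts of noncoding transcripts alone, and the number of TSSs is given beside each gene. Of 60 TSSs, 17 are at 0, and the Tcf7l2 and Ctnnb1 starts in the later parts of the genes lie kilobases away. Among these later starts, only that of Tcf7l2-203 begins a transcript of the basic set of GENCODE.

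The regions over the main start sites were also searched over their whole width. Of the 8 members whose main start was inside a region, 5 had a TCF/LEF match there: Tcf7l1, Axin2, Sp5, Lgr5 and Dkk1. Ctnnb1, Wnt3 and Lef1 had none. Over the 14004 regions at a start of any protein-coding gene the share was 12.6%, and their median width of 733 bp was close to the 729 bp of the 8. Counted in the same way, by any start of a member, the region at Tcf7l2 joins without a match, which gives 5 of 9 (55.6%). In the central 300 bp only Axin2 and Sp5 had a match, 2 of the 8 or 2 of the 9, beside 588 of the 14004. This comparison was chosen after the matches had been seen, and it rests on these few regions.

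As a whole the 187 regions were less often in promoters than the list as a whole. Of them, 26 were centred in a promoter (13.9%, interval 9.67 to 19.6%) beside 17004 of all 81132 regions. Of these 26, 9 were in promoters of the member itself. With promoters of 5 kb to both sides the shares were 38.5% beside 45.7%. Introns held 43.3% (36.4 to 50.5%) beside 35.0%, exons 8.56% beside 8.76%, and intergenic sequence 34.2% beside 35.2%. The gene body of the member contained 67 regions, and 32 lay within 10 kb of the main start. The member had the closest TSS for 58 of the 187 (31.0%) among genes of all types, and for 116 of the 187 among protein-coding genes alone. Whether most regions had a start of another gene nearer by thus depended on counting noncoding genes.

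The regions had a median width of 312 bp beside 355 bp for all regions, and 25.7% were narrower than 200 bp (19.9 to 32.4%) beside 19.8%. In promoters the median was 630 bp beside 600 bp, and outside promoters 296 bp beside 320 bp. Their GC content was 53.0% in the median window beside 51.7%. Sequence soft-masked as repeats made up most of the window in 8 of the 187 (4.28%) beside 14.1% of all regions.

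TCF/LEF letters were about as common in these regions as elsewhere. The motif was found in 23 of the 187 windows (12.3%, interval 8.34 to 17.8%) beside 10.5% of all regions, and in 11.8% of 7937 windows of the same length from the same loci that held no region. Of the 2 spellings, CTTTGAT occurred in 6.95% of the windows beside 4.57%, and CTTTGAA in 7.49% beside 6.36%. A pair or more of matches was held by 5 windows (2.67%, interval 1.15 to 6.11%) beside 0.892% of all regions, and this difference was not tested. Windows with 3 or more numbered 46 in the entire list, and 2 of these were the Axin2 downstream region and the Sp5 start-site region. The windows with a pair or more were counted after the matches had been seen.

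The SOX motif was in 23 windows (12.3%, interval 8.34 to 17.8%) beside 12.7% of all regions and 10.2% of the windows without a region. By gene it was found in 6 windows of Tcf7l1, 4 each of Tcf7l2 and Lef1, 3 of Wnt3, 2 each of Axin2 and Lgr5, 1 each of Sp5 and Dkk1, and none of Tcf7 and Ctnnb1. The Dkk1 match lay outside the region itself. A TCF/LEF and a SOX match shared a window in 4 regions (2.14%, interval 0.835 to 5.37%) beside 1.68% of all regions, 2 at Axin2 and 1 each at Sp5 and Lef1. The octamer was in 8 windows (4.28%, interval 2.18 to 8.21%) beside 2.15% of all regions and 1.69% of the windows without a region. In 2 of these the match lay outside the region itself, and over whole regions the shares were closer, 3.21% beside 2.66%. All 8 were outside promoters, 4 at Tcf7l1 and 1 each at Tcf7, Tcf7l2, Lef1 and Lgr5, and none of them also held a SOX or a TCF/LEF match. The windows without a region had a lower median GC content, 45.3%, and the shares were not compared at equal GC content.

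**Figure D4:**
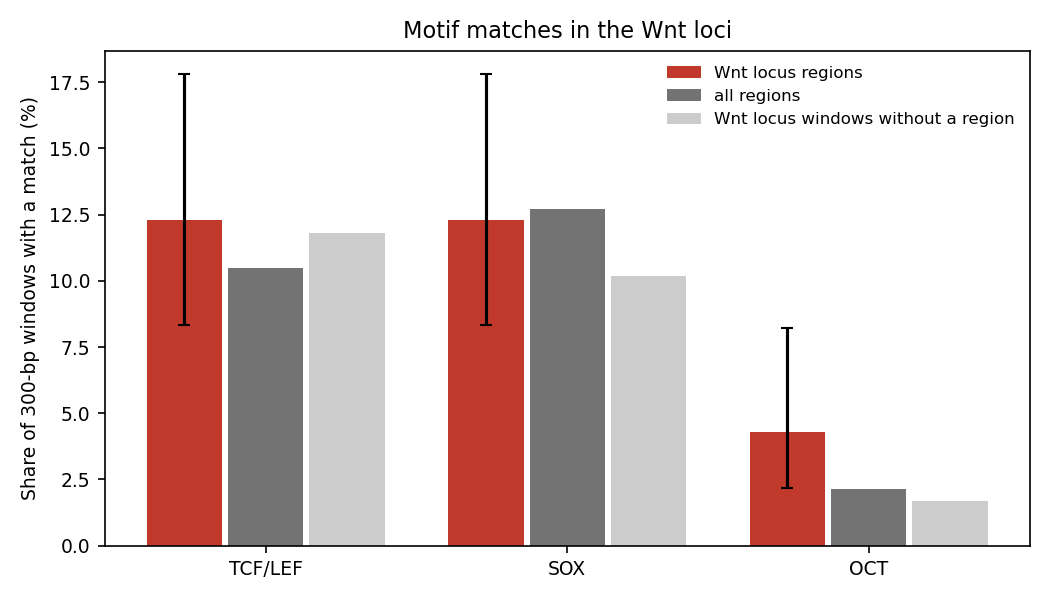
Share in percent of 300-bp windows that hold each motif, for the 187 Wnt locus regions with 95% Wilson intervals, all 81132 regions, and 7937 windows of the Wnt loci without a region. The TCF/LEF shares are 12.3%, 10.5% and 11.8%, and the octamer shares 4.28%, 2.15% and 1.69%.

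A wider list of 79 other genes of the pathway was described in the same way. In 71 of them (89.9%) a region overlapped a promoter, beside 66.5% of all protein-coding genes, and their median density was 5.89 regions per 100 kb. The receptor role had 18 genes, including Znrf3 and Rnf43, which encode ubiquitin ligases that act on Frizzled receptors. All 18 had an accessible promoter. Their densities ran from 1.50 at Fzd1, with 3 regions, to 10.93 at Lrp6, with 33. Fzd1 encodes a Frizzled receptor and LRP6 is its co-receptor. Of the 18 other ligands, 13 had an accessible promoter. Wnt10a had the highest density of them, 11.89, but no region in its promoter as defined here. A region lay 259 bp from its start, beyond the 100 bp into the gene that the promoter covers. Wnt4, the lowest with 1.50, and Wnt6, Wnt8b and Wnt10b had none either. Their nearest regions lay between 1034 bp (Wnt8b) and 18883 bp (Wnt4) from the start.

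Among the secreted agonists, the 4 R-spondin genes had a median of 3.57, from 1.20 at Rspo2 to 5.50 at Rspo4, and Rspo1 had no accessible promoter. Among 10 secreted inhibitors the exception was Dkk4, and densities ran from 2.39 at Frzb to 10.83 at Notum, an enzyme that removes the lipid of Wnt ligands. Porcn and Wls, which add that lipid and carry the ligand to the surface, both had accessible promoters, with densities of 6.50 and 1.44. Inside the cell, 10 of 11 transducers had an accessible promoter. Apc2, the densest with 11.17, was the one without, and Amer1 was the least dense with 2.00. All 9 nuclear cofactors had an accessible promoter, and they included the highest density of the wider list, 14.44 at Pygo2, which encodes a partner of the β-catenin complex. The co-repressor gene Tle1 had the lowest of them, 1.78. The 7 further target genes all had an accessible promoter and a median of 8.50, from 3.06 at Nkd1 to 11.90 at Ccnd1.

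**Figure D5:**
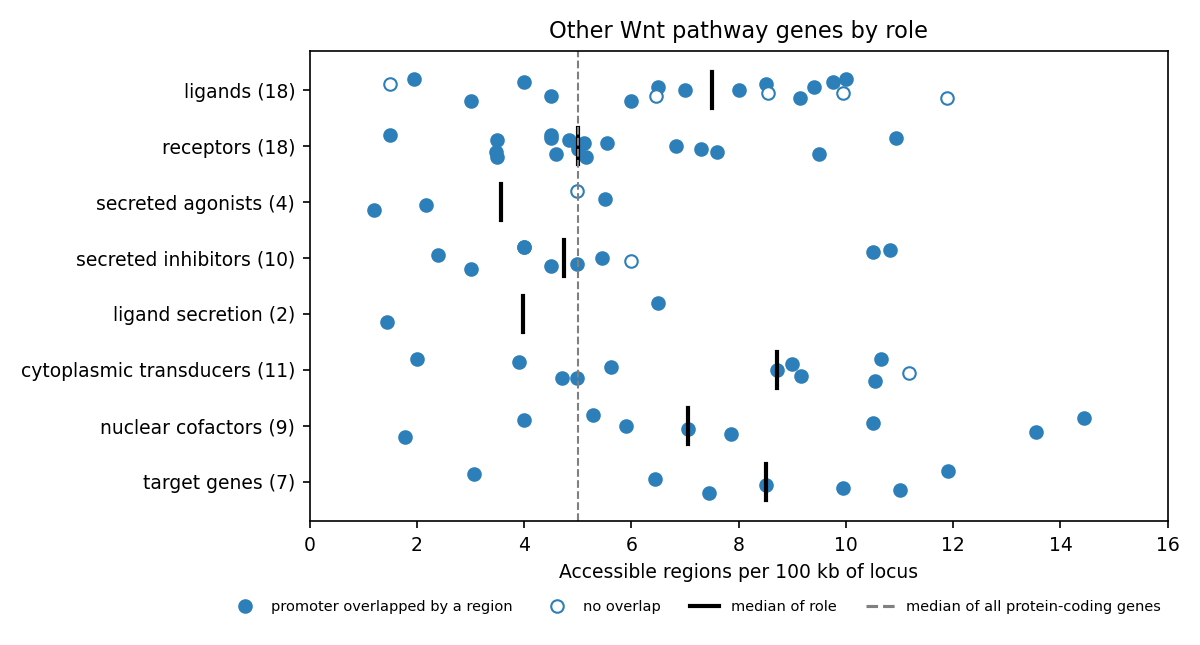
Regions per 100 kb of locus for 79 other Wnt pathway genes, 1 point per gene, grouped by role with the number of genes beside each role. Filled points have a promoter overlapped by a region, open points have none, black lines are medians of the role, and the dashed line is the median of all protein-coding genes, 5.00. All 18 genes of the receptor role are filled, while 5 of the 18 ligands are open.

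The cell type was looked at through promoters of marker genes. Of 8 ES cell genes, 6 had a promoter overlapped by a region: Pou5f1, Sox2, Esrrb, Zfp42, Klf4 and Tfcp2l1. Nanog and Dppa3 had none, but their loci, which overlap on chromosome 6, were the densest of all markers, with 15.99 and 12.48 regions per 100 kb. The authors dropped peaks that overlapped a ChIP-seq input, so a missing region does not show that a promoter was closed. Of the genes of other cell types, 3 of 3 trophoblast, 4 of 4 primitive endoderm, 3 of 5 fibroblast and 1 of 5 liver, blood and muscle genes had such a promoter, beside 66.5% of all protein-coding genes. The primitive endoderm loci had 3.38 to 7.94 regions per 100 kb. Open promoters alone did not set the ES cell genes apart from those of trophoblast and primitive endoderm.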

How the data were processed

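ATAC-seq was analysed from the merged region list that the authors deposited for the 12 libraries. By the processing notes of the submitters and the methods of the study, the authors aligned reads to mm10 with STAR (2.5.3a), removed duplicates with Picard, called peaks per library with MACS2 (2.1.1.20160309), used BEDOPS to join peaks across libraries and dropped those overlapping a ChIP-seq input. The list has 3 columns, the chromosome, start and end, and no measured unit. The methods state a range of reads for all samples, but the list gives no depth for a library or region. The 4 ChIP-seq samples were not used here.

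Regions were placed on GENCODE M21 and on the GRCm38 sequence with Python (3.11.15), numpy (2.4.6), pandas (2.3.3), pysam (0.24.0), scipy (1.17.1) and matplotlib (3.10.9). The base at the middle of a region set its class. A promoter was the 1000 bp before a TSS and the 100 bp after it, and it took precedence over exon, intron and intergenic. The main TSS was that of the APPRIS principal transcript, the most upstream where there were several. Densities were counted as regions per 100 kb of locus. Motifs were searched in the central 300 bp. Windows without a region were consecutive 300-bp pieces of the loci that no region overlapped. Sequences before start sites are from RefSeq on GRCm38, where 9 of the 10 members matched by symbol and Lgr5 had no entry. Shares have 95% Wilson intervals. Counting was tested on simulated data. No test between populations or between lists was run.

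Genes named were the 10 members, protein-coding genes closest to 3 or more regions of a locus, and the genes with the highest and lowest density of each role in the wider list. Noncoding neighbours, single transcripts, genes listed for lacking an accessible promoter and some single regions were named after their values were seen. Znrf3 and Rnf43 were named to describe the receptor role. The members and lists were chosen with earlier results of these data known. Alternatives were other reaches of a locus, transcripts, promoters, windows, motif letters, region overlap, joining of regions and removal of narrow regions.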

Additional observations from a re-analysis of the deposited data

How the results depend on the processing

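Of 58 alternatives over 11 results, 47 kept their value within 1.5 times for a count, or within the 95% interval of the main value for a share or a median. With a reach of 20 kb the loci held 105 regions at a median of 11.41 per 100 kb, and gene bodies alone held 67 regions. Without regions under 200 bp the median density was 4.75 and the median width 405 bp. The regions closest to a member numbered 116 of 187 among protein-coding genes alone, so that 58 as a minority turned into a majority, and 89 by the closest gene body. With promoters 5 kb to both sides, 38.5% of the regions were in promoters beside 45.7% of all regions. Central windows of 500 bp held the TCF/LEF motif in 18.7% and the SOX motif in 18.7% of the regions, beside 16.7% and 18.9% of all regions, and CTTTGAT alone gave 6.95%. The octamer was in 3.21% of whole regions beside 2.66% of all regions.

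Leaving out each member in turn moved the median density between 6.52 and 7.17. Promoters of members were accessible in 7 to 10 genes under the definitions run for them, and those of the wider list in 61 to 77. The wider list was not run with promoters of 500 bp to both sides or without narrow regions. The definitions by the region centre and by the TSS were chosen after seeing the data. No paired analysis was possible because the list pools the libraries and no result comes from a test. Shares rest on 187 regions, densities on 10 genes, and the list gives no depth per library. A place without a region may hold one below the calling threshold, or one dropped because it overlapped the ChIP-seq input.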
